A study of Mus musculus with 3 samples.

Results

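The nuclear genes for the subunits of respiratory complexes I to V were described across 3 libraries of chromatin-associated RNA from mouse macrophages. Members were the genes with a protein-coding transcript whose symbol begins with Ndufa, Ndufb, Ndufc, Ndufs, Ndufv, Uqcr or Atp5, or with Cox and a digit from 4 to 8, and the 4 genes Sdha to Sdhd. This rule used names only and gave 94 gene identifiers with 93 symbols (Atp5o names 2 loci) of 55536 annotated genes, 22028 of them protein-coding. By prefix, 38 belong to complex I, 8 are the complex I assembly factors Ndufaf1 to Ndufaf8, 4 belong to complex II, 8 to complex III, 18 to complex IV and 18 to complex V. Another 13 matching symbols have no protein-coding transcript and were left out.

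The cells were bone marrow-derived macrophages of strain C57BL/6J, primary cells for which neither age nor sex was collected. All 3 libraries form 1 group, with no untreated library among them. The cells had received 100 ng/ml Lipid A (the moiety of lipopolysaccharide bound by Toll-like receptor 4) for 12 h, were then kept without it for 12 h, and were given 100 ng/ml again for 40 min. RNA of the chromatin fraction, which holds transcripts still being made or retained at the template, was sequenced after ribosomal RNA depletion, from 1 µg, 250 ng and 500 ng of RNA in replicates 1, 2 and 3. The labels number these as biological replicates under the same donor entry and do not state separate animals. Spreads and p-values therefore measure the differences between these libraries, which may be technical. No effect of Lipid A can be read from 1 group.

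Oxidative phosphorylation passes electrons from NADH (complex I) and succinate (complex II) through ubiquinone to complex III, cytochrome c and complex IV, which reduces oxygen to water. Complexes I, III and IV pump protons across the inner mitochondrial membrane, and complex V, the ATP synthase, uses their return to make ATP. Most subunits are encoded in the nucleus and imported, while a small core of complexes I, III, IV and V is encoded in mitochondrial DNA. Macrophages stimulated through Toll-like receptor 4 are known for a shift of their energy metabolism towards glycolysis.

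The gene tables held 13802716, 17187524 and 16502809 expected counts in replicates 1, 2 and 3. A count of 0 allows up to 3 counts, which is 0.217, 0.175 and 0.182 CPM (the count scaled to a fixed library total). Such limits cover counting error only. In the gene tables all 10 macrophage markers examined were detected (Adgre1 and Lyz2 lead), whereas 0 of 8 neutrophil, 0 of 6 T cell, 0 of 5 B cell and 0 of 5 muscle markers were. In the table made directly from the reads, described below, the T cell marker Cd3d had 15.6 TPM. The other neutrophil, T cell, B cell and muscle markers were there at 2.06 TPM (Cd8a) or lower. The fibroblast list summed to 1, 74 and 87 counts, with 3 of 6 detected, all of them collagens (Col1a1, Col1a2 and Col3a1, at 0 in replicate 1), and Pdgfra at 0 throughout. Of 4 erythroid markers Alas2 alone was detected.

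As a class, the respiratory genes were present at modest levels on chromatin in the gene tables. A gene was called detected with a mean of at least 10 expected counts, and 72 of the 94 members were, where 49.7% of all protein-coding genes passed. Of these, 66 had at least 10 counts in every library, and 5 members had 0 counts in every library. The median level of the detected members was 5.45 TPM (a level scaled by transcript length and library), beside 7.32 TPM over all detected protein-coding genes. Only 27 of the 72 lay above that general median, 7 lay above the 75th percentile, 1 (Atp5b) in the top decile and 11 at or below the 25th percentile. These ranks hold for the gene tables and were not computed from the reads. There TPM rose by a median ratio of 1.46 for the members and 1.29 for all detected protein-coding genes. Member transcripts are short, with a median effective length of 709 bases beside 2132 bases for detected protein-coding genes, so a given TPM rests on few fragments. In bulk RNA, fewer cells with a transcript and less of it per cell cannot be told apart. The median member had 52.5 counts and the median detected protein-coding gene 195. All members together took 0.0477%, 0.0567% and 0.0439% of the counts in replicates 1, 2 and 3, or 578, 867 and 690 TPM. The median TPM of all detected protein-coding genes was 6.05, 8.755 and 7.13 in these libraries. This general median was thus highest in replicate 2, as was the summed TPM of the members. The share of TPM held by protein-coding genes was instead highest in replicate 3 (27.4%, 30.7% and 31.9% in replicates 1, 2 and 3).

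Ranked by the median TPM of their members, complex II (9.53) and complex V (9.30) came before complex III (4.39), complex IV (3.85), complex I (3.11) and the assembly factors (1.88). The library medians of complex II were 6.98, 13.0 and 8.57 TPM and those of complex V were 6.65, 11.8 and 8.91, so these 2 complexes did not differ beyond the spread between libraries. Complex V lay above complex III in every library, with no overlap with the 3.78, 5.32 and 4.62 TPM of complex III. From the reads their medians were closer, 11.1 TPM for complex V and 8.57 for complex III. Medians of complexes I, III and IV overlapped between libraries. The order depends on the undetected members: over detected members only, the medians were 11.5 TPM for complex V, 10.3 for complex IV, 9.53 for complex II, 5.07 for complex I and 4.49 for complex III. The summed TPM, which grows with the number of genes, was 235 ± 37.2 (SD, n = 3) for complex V, 189 ± 57.8 for complex I, 146 ± 25.6 for complex IV, 63.8 ± 11.4 for complex II and 57.8 ± 12.4 for complex III.

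**Figure D1:**
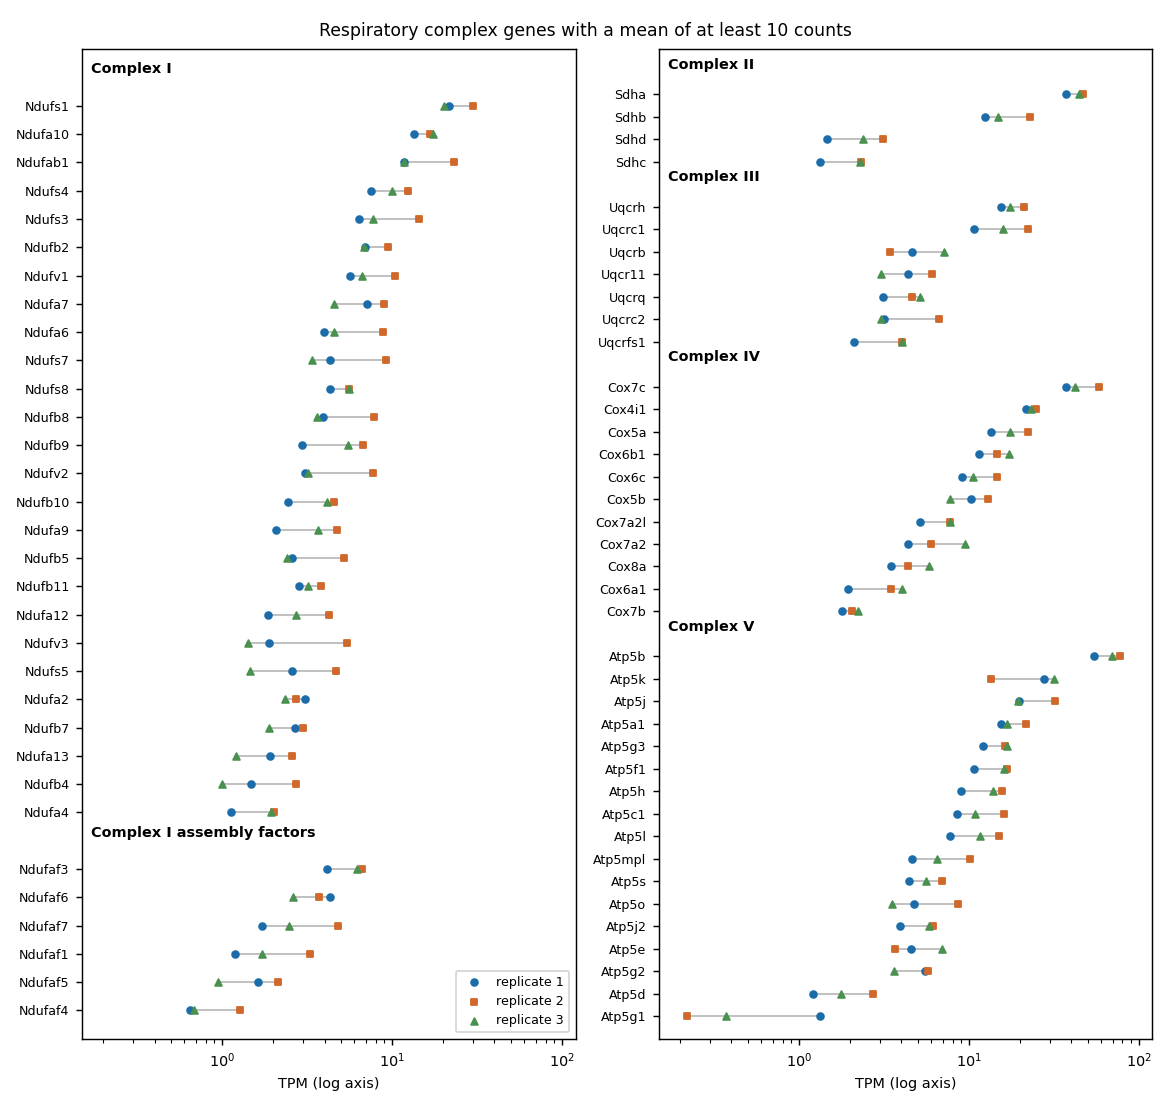
TPM of the detected members in the 3 libraries, with 1 of the 72 not drawn (log axis, marker shape and colour give the replicate, grey lines join the lowest and highest library), ordered by mean TPM within each complex. Atp5b, Cox7c and Sdha lead in the gene tables. Replicate 2 is often the highest library, as it is for the median TPM of all detected protein-coding genes, and Atp5k is a case where it is the lowest.

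Complex I is a large L-shaped enzyme whose core subunits carry the flavin and iron-sulfur clusters that move electrons from NADH to ubiquinone, surrounded by many accessory subunits. All 7 nuclear core subunits were detected (median 7.59 TPM). Of the 31 accessory subunits 20 were detected, and the median over all 31 was 2.89 TPM. The highest was Ndufs1 (ENSMUSG00000025968.16, mm10 chromosome 1, 63143596 to 63176833, minus strand), the core subunit with the most iron-sulfur clusters, at 21.6, 29.7 and 20.3 TPM. Its mean was 23.9 ± 5.11 TPM (SD, n = 3), and replicate 2 was highest, as was the general median TPM. In log2 CPM Ndufs1 stood at 5.27, 5.37 and 5.08, so replicate 2 was less set apart from replicate 1. Ndufa10, an accessory subunit, followed at 13.5, 16.7 and 17.5 TPM, with replicate 1 the lowest. In log2 CPM (3.30, 3.17 and 3.43) its lowest library was replicate 2 instead. Ndufab1, the mitochondrial acyl carrier protein that is also a complex I subunit, had 11.7, 23.2 and 11.7 TPM (chromosome 7, 122085403 to 122101886), so replicate 2 stood apart. The detected members of complex I spanned 14.1-fold, down to Ndufa4 at 1.12, 2.03 and 1.94 TPM from 8, 17 and 13 counts. Ndufa4 carries a complex I name and is now counted as a complex IV subunit.

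The 11 complex I members that were not detected were small accessory subunits and the Ndufa4 paralog Ndufa4l2. Most of them had a few counts in each library. Ndufa3 had 8, 15 and 5 counts, Ndufb3 8, 12 and 4, Ndufa11 7, 15 and 3, and Ndufa1, on the X chromosome, 8, 6 and 3. Ndufc1 had 5, 9 and 9 counts, Ndufa8 2, 12 and 9, Ndufc2 5, 9 and 5, and Ndufs6 5, 9 and 4. The lowest were Ndufb6 with 1, 2.47 and 4.89 counts, Ndufa5 with 2, 5 and 0, and Ndufa4l2 with 0, 0 and 4. At this depth these values do not show absence. From the table made directly from the reads, described below, 14 of all 22 undetected members reached a mean of 10 counts. That table held more counts in total in every library. Over all annotated genes, 23649 reached that mean there and 14330 in the gene tables. The same count was not made over undetected genes alone, so it cannot be called particular to the members.

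Of the assembly factors, which build complex I and are not part of the finished enzyme, 6 of 8 were detected and all were low. Ndufaf3 was highest at 4.13, 6.65 and 6.21 TPM, followed by Ndufaf6 (4.30, 3.73 and 2.61) and Ndufaf7, a methyltransferase (1.71, 4.79 and 2.46). These 3 overlapped between libraries. Ndufaf4 was the lowest detected factor at 0.87 ± 0.36 TPM, and Ndufaf2 (5, 8 and 12 counts) and Ndufaf8 (4, 6 and 5 counts) were not detected.

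Complex II, succinate dehydrogenase, is also a citric acid cycle enzyme and is encoded in the nucleus alone. Its 4 genes split by role. Sdha, the flavoprotein that oxidises succinate (ENSMUSG00000021577.14, chromosome 13, 74322254 to 74350280, minus strand), had 37.3, 47.0 and 44.1 TPM, and Sdhb, the iron-sulfur subunit, had 12.5, 23.0 and 14.8 TPM. Those of the membrane anchors were 1.33, 2.33 and 2.28 TPM for Sdhc and 1.46, 3.11 and 2.37 TPM for Sdhd. Every Sdha and Sdhb value lay above every anchor value, and the mean of Sdha was 21.6 times that of Sdhc on the TPM scale. In counts Sdhc (39, 97 and 80) exceeded Sdhd (21, 43 and 31). The effective length was 2548 bases for Sdhc and 991 for Sdhd, and TPM divides the counts by this length. From the reads Sdhc had 8.27 ± 2.22 TPM, 4.18 times its gene-table mean, and Sdhd 2.19 ± 0.567, so the order of the anchors depended on the table.

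Complex III, the cytochrome bc1 complex, had 7 of the 8 members that the name rule gives it detected, within a range of 5.30-fold. Uqcrh, the small acidic hinge subunit that contacts cytochrome c1 (ENSMUSG00000063882.12, chromosome 4, 116066965 to 116075071, minus strand), had 15.5, 20.95 and 17.4 TPM. Uqcrc1, a large core subunit, had 10.6, 22.3 and 15.8 TPM and overlapped with Uqcrh. The other core subunit, Uqcrc2, was lower in every library at 3.17, 6.62 and 3.02 TPM. Uqcrb, next by mean level, rested on 23, 14 and 28 counts (5.05 ± 1.86 TPM). The Rieske iron-sulfur protein Uqcrfs1 was the lowest detected member at 2.10, 4.01 and 4.05 TPM, and Uqcr10 had 8, 7 and 4 counts and was not detected.

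Complex IV, cytochrome c oxidase, separated by isoform. All 11 subunits of the usual, widely expressed isoform were detected (median 10.3 TPM). Of the 7 members known from particular tissues 0 were. Cox7c led (ENSMUSG00000017778.14, chromosome 13, 86044816 to 86046904, minus strand) with 37.4, 58.1 and 41.8 TPM from 202, 263 and 188 counts. Cox4i1, the largest nuclear subunit, had 21.7, 24.8 and 23.2 TPM, below Cox7c in every library. Cox5a, which binds on the matrix side, had 13.5, 22.2 and 17.5 TPM and overlapped with Cox4i1. From the reads, Cox4i1 (59.0, 75.5 and 69.5 TPM) overlapped with Cox7c (57.8, 94.2 and 74.7) and lay above Cox5a (15.3, 17.3 and 13.6) in every library. The lowest detected was the X-linked Cox7b at 1.80, 2.06 and 2.23 TPM from 11, 12 and 9 counts.

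Pairs of paralogs within complex IV differed by a wide margin in the gene tables. Cox4i1 had 113, 118 and 103 counts and its lung-associated paralog Cox4i2 had 1, 1 and 1. Cox6a1 had 11, 16 and 18 counts beside 0, 1 and 2 for the muscle form Cox6a2. Cox6b1 had 38, 40 and 40 counts beside 0, 1 and 0 for the testis form Cox6b2. Cox7a2 (20, 22 and 25 counts) and the supercomplex factor Cox7a2l (58, 86 and 81 counts) were detected, and the muscle form Cox7a1 had 0 in all libraries. Cox7b2, Cox8b and Cox8c were likewise at 0 counts, where Cox8a had 17, 18 and 23. In the 7 paralog sets with an undetected form, that of Ndufa4 included, no library of that form overlapped with any library of its usual paralog. The table made from the reads gave smaller gaps for some: 17, 47 and 30 counts for Cox7a1 (5.37 ± 1.80 TPM), 15, 13 and 26 for Cox4i2 and 7, 11 and 5 for Cox6a2, while Cox8c stayed at 0 and Cox6b2 at 0, 2 and 1. The muscle markers Mb and Myh1 were at 0 in the gene tables. The cause of the difference between the tables was not tested.

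**Figure D2:**
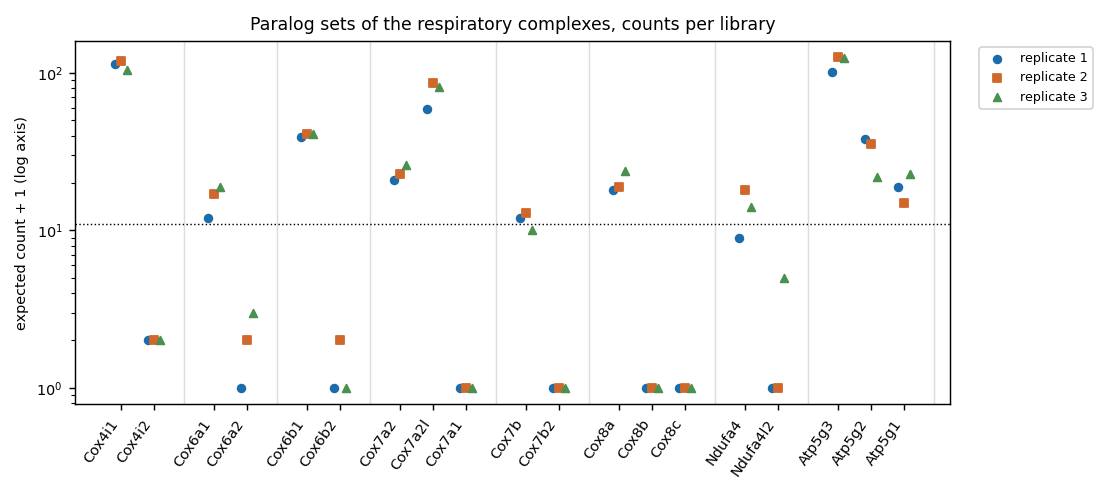
Expected count plus 1 (log axis) in each library for the paralog sets of complexes I, IV and V, with sets separated by grey lines and the dotted line at 10 counts. The tissue forms of complex IV and Ndufa4l2 sit at 0 to 4 counts, and all 3 genes for subunit c of the ATP synthase lie above the line.

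The log2 ratio of TPM + 1 between Cox7a2 and Cox7a2l was -0.19, -0.32 and 0.25, a mean of -0.09 ± 0.30 (SD, n = 3), smaller than the spread between libraries. From the reads it was 1.84, in favour of Cox7a2, so no order of these genes can be given.

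Complex V had 17 of 18 members detected and spanned 105-fold in mean TPM. That range rests on Atp5g1, whose level is taken up below, and it was 35.4-fold without this gene and 36.2-fold from the reads. Atp5b, the catalytic beta subunit of the F1 head (ENSMUSG00000025393.12, chromosome 10, 128083273 to 128090391, plus strand), had 54.1, 77.9 and 69.6 TPM from 596, 820 and 701 counts. Its mean of 67.2 ± 12.1 TPM (SD, n = 3) was the highest of all members in the gene tables. From the reads, Cox7c (75.6 TPM), Sdha (69.9) and Cox4i1 (68.0) were above Atp5b (60.3). The partner of Atp5b in the head, the alpha subunit Atp5a1, had 15.5, 21.7 and 16.7 TPM, below Atp5b in every library. Atp5k, the small membrane subunit e (chromosome 5, 108433244 to 108434448, minus strand), had 27.8, 13.5 and 31.6 TPM, with replicate 2 well below the others. Atp5j, coupling factor 6 in the peripheral stalk, had 19.7, 32.0 and 19.4 TPM. In TPM it was thus highest in the library in which Atp5k was lowest. In log2 CPM, however, Atp5j was alike in replicates 1 and 2 (3.21 and 3.21) and lower in replicate 3 (2.65). The longer Atp5o locus (chromosome 16, 91684398 to 91926982), which overlaps the usual Atp5o and Donson on the same strand, had 0 counts in all libraries, and the usual Atp5o had 36, 63 and 23.2.

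Subunit c, which forms the rotating ring of the ATP synthase, is made as the same mature peptide from 3 genes. Atp5g3 had 12.1, 16.3 and 16.8 TPM, Atp5g2 had 5.54, 5.74 and 3.60, and Atp5g1 had 1.32, 0.22 and 0.37. The order was the same in all 3 libraries, although an exact two-sided sign-flip permutation test over 3 libraries cannot give a p below 0.25. On the log2(TPM + 1) scale Atp5g3 exceeded Atp5g2 by 1.00, 1.36 and 1.95, a mean of 1.44 ± 0.48, and exceeded Atp5g1 by 3.34 ± 0.73, while Atp5g2 exceeded Atp5g1 by 1.90 ± 0.50 (SD, n = 3 for each). The level of Atp5g1 needs care. Its counts were 18, 14 and 22 (log2 CPM 0.43, -0.34 and 0.54), lower in replicate 2 but not in replicate 3. The effective length that the tables give it was 978, 4394 and 4462 bases. TPM divides by this length, which lowers it in replicates 2 and 3, and in replicate 2 the count was lower as well. In counts Atp5g1 overlapped with Atp5g2 (37.3, 34.2 and 20.9). All 31-base words of the transcribed pseudogene Gm10175 also occur in Atp5g2, and Gm10175 took 1.67, 17.8 and 6.07 counts.

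The promoters of the members were examined for what they share. Of the 93 symbols, 76 matched an entry, by symbol or synonym, in the RefSeq promoter table (GRCm38.p6, 250 bases before to 50 after a start), giving 81 entries beside 32851 in all. Among those without a matched entry were Atp5a1, Atp5mpl, Cox4i1, Cox4i2, Cox6a2, Cox6c, Cox8c, Ndufa2, Ndufa4l2, Ndufaf6, Ndufb9, Ndufs1, Sdhc, Uqcrb, Uqcrc2 and Uqcrq. The letters GCATGCGC, the core of the site of nuclear respiratory factor 1 (a regulator of respiratory genes), occurred on either strand in 12 of 81 entries (14.8%), beside 2.71% of all entries and 3.65% of entries of protein-coding genes. GCCATNTT, the core of the YY1 site, occurred in 19 (23.5%) beside 6.05% and 6.47%. The share with CCGGAAGT, an ETS site of the kind bound by GABP, was 6.17% (5 of 81), beside 3.89% of all and 5.35% of protein-coding entries. AAGGTCA, the core bound by estrogen-related receptors, occurred in 9.88%, beside 4.72% and 3.97%. TATAAA occurred in 9.88%, beside 13.6% and 12.1%, and CCAAT in 43.2%, beside 37.4% and 37.8%. Median GC content was 58.3% in the members' entries, 57.0% in those of protein-coding genes and 52.7% in all.

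The sequences below show the NRF1 core in the promoter of the most abundant member of each complex that holds it, 30 bases read 5′ to 3′ on the strand of the gene, with the match in capitals. GCATGCGC and its reverse complement overlap in several of them.
Atp5k, complex V, chr5:108434431-108434460: ctttcactgcgGCGCATGCgcctttctggc
Sdhb, complex II, chr4:140961206-140961235: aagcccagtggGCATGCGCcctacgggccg
Uqcrc1, complex III, chr9:108936667-108936696: gactccgctctGCGCATGCgcagcgcggct
Ndufa6, complex I, chr15:82354356-82354385: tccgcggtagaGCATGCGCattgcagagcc
Cox6a1, complex IV, chr5:115349102-115349131: acaggaacgggGCGCATGCgcgctctcgct
Ndufaf5, assembly factor, chr2:140170651-140170680: tagtcccgttgGCGCATGCgcctaatagaa
The match begins 50 bases before the RefSeq start in Atp5k, 54 before it in Sdhb, 83 before it in Ndufa6 and 162 before it in Cox6a1. In Uqcrc1 and Ndufaf5 it lies after the start, at positions 31 and 17. The other members with the core were Atp5g2, Atp5l, Ndufa8, Ndufa11, Ndufaf4 and Uqcr11.

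The strand and position of matches to the YY1 core were also described. Of 20 matches in 19 members, 15 read as the reverse complement, 11 began after the RefSeq start and 10 contained the ATG of an annotated start codon. These counts were not made over the matches in all promoter entries, so they cannot be called particular to the members. The 3 shown here are from the most abundant holders in complex V, complex I and the assembly factors that leave room for 30 bases.
Atp5b, complex V, chr10:128083313-128083342: acccggattccGCCATGTTgagtcttgtgg
Ndufa7, complex I, chr17:33824616-33824645: ggagcggaaggAATATGGCgtccgctactc
Ndufaf3, assembly factor, chr9:108567495-108567524: ccagacttggaGCCATTTTaaggagaaacc
The matches in Atp5b and Ndufa7 hold the annotated start codon of the gene, and that in Ndufaf3 does not. None of the 19 members with the YY1 core also held the NRF1 core. Median TPM was 4.72 in the 12 members with the NRF1 core and 3.60 in the 64 without it, and 5.13 in the 19 with the YY1 core beside 3.39 in the 57 without. A match is a description of letters and does not show binding in these cells.

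Each gene's counts in the 3 libraries were compared with Poisson sampling by a chi-square test, on library sizes scaled by edgeR's TMM factors, with Benjamini-Hochberg adjustment over all 14330 genes whose mean count was 10 or more. At an adjusted p under 0.05, 22 of the 72 detected members varied beyond counting noise, where 54.9% of all genes tested did. Low counts give the test little power, and by count the members stood at 1 of 21 between 10 and 30 counts, 13 of 32 between 30 and 100, 6 of 14 between 100 and 300 and 2 of 5 between 300 and 1000. In the same ranges 23.8%, 40.3%, 54.9% and 71.9% of protein-coding genes varied. Of the 22, 10 belong to complex I, 5 to complex V, 3 to complex III, 2 each to complexes II and IV, and 0 to the assembly factors.

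Most of this variation had a common direction. Of the 22 members 17 were highest in replicate 2, the library made from the least RNA (250 ng), and 15 were lowest in replicate 3. The same count was not made over all genes that varied, so this direction cannot be called particular to the members. Over all 72 detected members the median deviation of log2 CPM from each gene's mean was -0.01, 0.14 and -0.07 in replicates 1, 2 and 3, beside 0.00, 0.02 and -0.01 for all detected protein-coding genes. The deviation in replicate 2 was 0.26 for complex I and -0.10 for complex IV. With scaling by total counts alone the general median in replicate 2 rose to 0.12, and that of complex IV was then 0.00 while that of complex I was 0.36. Without replicate 2 only 5 members varied, where 27.9% of all genes did, and without replicate 3 it was 13, where 41.6% did. The part of RNA input in this pattern was not tested.

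Ndufab1 is an example, with 167, 375 and 214 counts and an adjusted p of 2.29e-08. Sdhb had 159, 278 and 169 counts (adjusted p = 0.00353). Ndufv3, an accessory subunit of the NADH-binding arm, had 24, 62 and 20 counts (adjusted p = 0.000378), so replicate 2 exceeded the sum of the others. Atp5k moved against this direction with 98, 45 and 106 counts and the smallest adjusted p among members, 9.73e-10. Among detected members it also had the largest SD of log2 CPM, 0.87. From the reads, Atp5k had 182, 171 and 253 counts and an adjusted p of 3.66e-08. Uqcrb (23, 14 and 28 counts, SD 0.68, adjusted p = 0.0320) was low in replicate 2 as well, but from the reads it had 44.9, 60.8 and 60.0 counts and an adjusted p of 0.683. Ndufs5, with an SD of 0.73 on 12.9, 20.5 and 6.37 counts, and Ndufaf5, with 0.69 on 19, 25 and 9 counts, did not pass the test (adjusted p = 0.0868 and 0.0899).

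**Figure D3:**
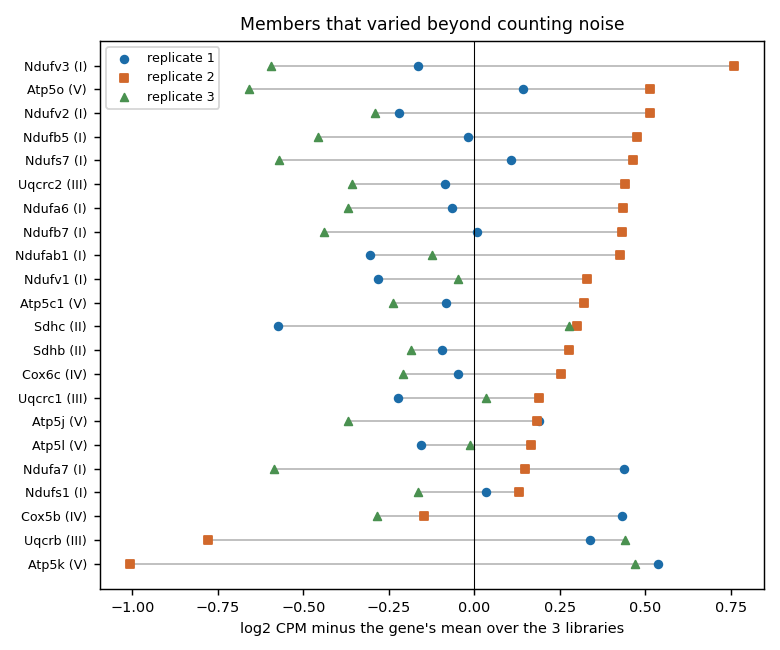
Log2 CPM of the 22 members that varied beyond counting noise, as the difference from each gene's mean over the 3 libraries (points are libraries, grey lines join the extremes, the complex is in brackets). Replicate 2 lies at the right end for 17 of them, and Atp5k and Uqcrb show it at the left end.

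At the other end, several leaders were stable. Atp5b had an SD of log2 CPM of 0.03 and an adjusted p of 0.820, and Sdha (630, 782 and 689 counts) had 0.06 and 0.361.

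Transcripts annotated as retaining an intron made up a large part of member TPM. In the chromatin fraction, unspliced precursors and annotated retained-intron transcripts hold the same intronic bases and cannot be told apart in these tables. Among the 47 members with such a transcript and a mean of at least 1 TPM, its median share of the gene's TPM was 54.5%, with library medians of 59.0%, 56.5% and 51.4%. Over 6285 protein-coding genes of the same kind the median was 41.8%, with 41.0%, 44.6% and 40.6%. The share exceeded 50% in 30 of the 47 members (63.8%) and in 36.5% of those genes. It was highest in Ndufa7, an accessory subunit of complex I, at 89.2%, 83.8% and 91.0%. Ndufb10 (71.8%, 84.1% and 100%), Cox5a (83.6%, 82.9% and 84.2%), Ndufab1 (80.1%, 82.5% and 82.5%) and Atp5f1, the stalk subunit b (80.7%, 80.8% and 82.2%), followed. Cox5a, Ndufab1 and Atp5f1 differed little between libraries. In the transcript table made from the reads the medians were closer, 49.7% for 50 members and 43.3% for 7251 protein-coding genes.

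The deposit holds a second quantification, made directly from the reads, and the members differed between the tables. This second table held more counts in all, 21006413, 30933271 and 28138803 in replicates 1, 2 and 3. All 72 detected members had more counts from the reads in every library, and 62 had a higher TPM, 20 of them over 2-fold. A higher TPM from the reads was general, found in 8442 of 10952 detected protein-coding genes. The shares with more counts or with over 2-fold were not computed over all genes. Neither can therefore be called particular to the members. The median ratio of mean TPM was 1.46 for the members and 1.29 for all detected protein-coding genes. The largest ratios were those of Cox8a (5.96), Cox7b (5.76), Ndufa12 (5.43), Ndufs8 (4.58) and Cox7a2 (4.35). For Cox8a the counts were 17, 18 and 23 in the gene tables and 174, 214 and 197 from the reads. Among undetected members Ndufaf8 went from 4, 6 and 5 to 62, 108 and 113 counts. The smallest ratios were those of Ndufaf3 (0.740), Atp5e (0.756), Ndufb11 (0.785), Ndufb7 (0.799) and Atp5s (0.838). Ranks within a complex that rest on the members with large ratios, such as Cox7b as the lowest detected complex IV subunit, hold for the gene tables only.

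**Figure D4:**
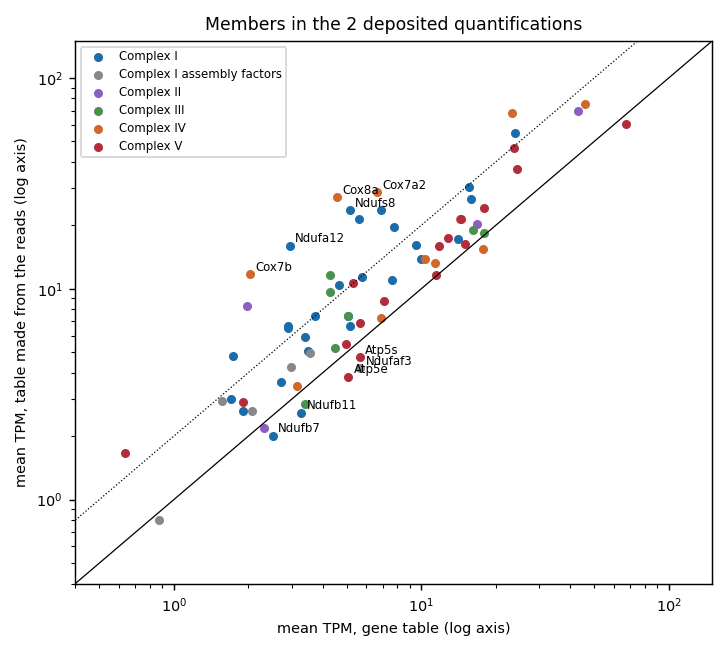
Mean TPM of the 72 detected members in the gene tables and in the table made from the reads (log axes, colours give the complex, the solid line is equality and the dotted line 2-fold). Most points lie above equality, and the 5 largest and 5 smallest ratios are labelled.

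Several members share sequence with other annotated genes. For 19 members at least 50% of the 31-base words of another gene's transcript were found in the member, and most of these copies were processed pseudogenes with few or 0 counts. Ndufa12, with 12.3, 19.7 and 11.5 counts, had fewer in every library than its copy Gm15920, with 31.7, 29.4 and 19.5. From the reads the order was reversed, with 147, 112 and 167 counts for Ndufa12 and 32.2, 55.1 and 48.8 for Gm15920. The posterior SD of the count was over 5% of the count for 3 detected members, Ndufa12 (12.9%), Atp5g2 (12.4%) and Ndufb4 (9.70%), and 0 for 50 of the 72. Exons of 33 members overlap those of another gene, 29 of them on the opposite strand, such as Cox4i1 with Emc8 and Atp5j with Gabpa. Whether counting used strand is not given in the sources used here, so these levels are uncertain by the reads of the partner. Of the symbols left out, Ndufb1-ps, annotated as a bidirectional-promoter long non-coding RNA, had 51.0, 60.4 and 52.5 counts (7.06 ± 0.862 TPM), a level within the range of complex I subunits.

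The 13 subunits encoded in mitochondrial DNA are not members, but complete the complexes. Of the 13, 8 were detected in the gene tables, led by mt-Co1, the catalytic subunit of complex IV, with 193 ± 17.6 TPM, and mt-Atp8 with 158 ± 38.2. The level of mt-Atp8 rested on only 60, 36 and 52 counts. From the reads mt-Co1 had 143 TPM and mt-Atp8 50.7. Not detected were mt-Nd3, mt-Nd4l, mt-Co2 and mt-Atp6, listed at 0 in all libraries, and mt-Co3, at 1.68, 2.39 and 5.78 counts. For each of these 5, an unprocessed pseudogene on chromosome 1, between 24612407 and 24615565, holds the same words (99.0% to 100%). Its counts were 475, 497 and 530 for Gm28661, the copy of mt-Co2, 430, 574 and 519 for Gm28437 (mt-Co3), 403, 279 and 389 for Gm10925 (mt-Atp6), 57, 47 and 48 for Gm10222 (mt-Nd4l) and 35, 38 and 33 for Gm28438 (mt-Nd3). The tables cannot tell a mitochondrial transcript from its copy where every word is shared. From the reads the copies of mt-Nd4l and mt-Nd3 had 0 counts in every library. Gm28661 had 215, 133 and 153 counts, Gm28437 419, 9.88 and 5.57, and Gm10925 0, 47.3 and 0.02. In that table mt-Co2 had 40.1 TPM, mt-Atp6 39.95, mt-Co3 32.8, mt-Nd4l 28.8 and mt-Nd3 12.1. All 8 detected mitochondrial subunits varied beyond counting noise, and the list took 0.0448%, 0.0295% and 0.0361% of counts, lowest in replicate 2, where the nuclear members took their highest share.

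**Figure D5:**
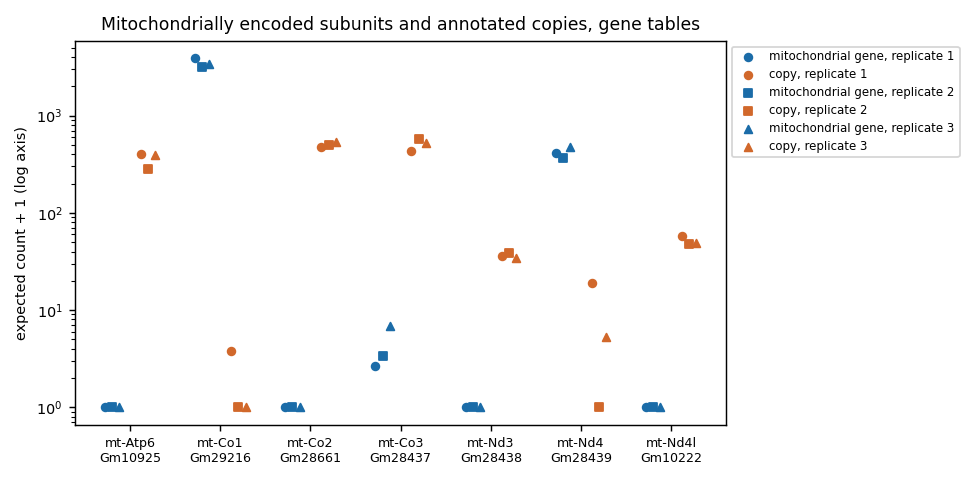
Expected count plus 1 (log axis) in the gene tables for 7 mitochondrially encoded subunits (blue) and the annotated chromosome 1 copy of each (orange), with marker shape for the replicate. For mt-Atp6, mt-Co2, mt-Nd3 and mt-Nd4l the mitochondrial gene is at 0 and the copy holds the counts, while mt-Co1 and mt-Nd4 show the opposite.

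Other genes of the pathway, which the name rule does not match, were described from lists. Among them Cyc1 encodes a subunit of complex III and Usmg5 a subunit of complex V. Cytochrome c (Cycs, 8.98 ± 0.926 TPM) and cytochrome c1 (Cyc1, 6.17 ± 1.93) were detected, and Cyc1 varied between libraries. Complex I assembly factors outside the Ndufaf family were detected in 8 of 8 cases, led by Foxred1 (20.9 ± 6.81 TPM) and Acad9 (6.63 ± 2.50), and 4 varied. Detection was 3 of 4 for complex II assembly (Sdhaf2 10.7 ± 3.66 and Sdhaf3 1.31 ± 0.428), with 1 that varied, and 3 of 6 for complex III assembly (Ttc19 12.0 ± 1.69 and Uqcc1 11.7 ± 1.54), also with 1. For complex IV assembly it was 13 of 18 (Cox17 19.7 ± 4.57 and Surf1 17.6 ± 6.15), with 3 that varied. For the complex V list of assembly, inhibition and the subunit Usmg5 it was 5 of 5 (Atpif1 12.3 ± 2.15 and Usmg5 8.52 ± 0.384), with 0 that varied. Of 12 nuclear regulators of respiratory genes 11 were detected. Esrra, an estrogen-related receptor, led with 46.2 ± 4.47 TPM, followed by Gabpb1 with 19.7 ± 1.64, and 5 varied. The coactivator Ppargc1a had 0, 1 and 0 counts, while Ppargc1b had 177, 276 and 194.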

How the data were processed

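Total RNA-seq of the chromatin fraction gave 3 tables per library. Per the README files deposited with the samples, the authors used mm10 and GENCODE M21. The authors made gene and transcript tables from transcriptome alignments, giving expected counts and TPM under RSEM's column names. A transcript table of estimated counts and TPM, under kallisto's column names, was deposited as made directly from the reads. Programs, versions and strand setting: not given in the sources used here.

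Levels are deposited TPM from the gene tables. Expected counts, as deposited, were rounded to whole numbers for the chi-square test against Poisson sampling, with TMM factors from edgeR 4.0.16 and, as an alternative, size factors from DESeq2 1.42.0. Log2 CPM used a prior count of 0.5. Rows without a gene (numeric, spike-in and phiX entries) held 1.13%, 0.324% and 0.279% of all counts and did not enter the library sizes. The alternatives were other scalings, filters and pseudocounts, gene sums of the table made from the reads, and leave-one-out fits.

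Members, lists and roles were chosen with earlier results of these data known. The rule for named genes took the 3 highest and the lowest detected member of each complex, all paralog sets and undetected members, the 5 largest SDs of log2 CPM, the 5 largest and smallest ratios between the tables, the 5 highest retained-intron shares and the 2 highest genes of each pathway list. Other members named, such as the stable leaders, were chosen after their values were seen. Depth was 13802716 to 17187524 expected counts per library. The values of 1 member are not reported here by name.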

Additional observations from a re-analysis of the deposited data

How the results depend on the processing

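The number of detected members stayed between 66 and 86 under every alternative tried. Over all annotated genes, 14330 reached a mean of 10 counts in the gene tables and 23649 from the reads. With 1 library left out it was 14021 to 14542. The share of protein-coding genes detected under each alternative was not computed, so the members' range cannot be set against it. From the table made from the reads, median TPM was 6.24 for complex I, 3.56 for the assembly factors and 14.3 for complex II. It was 8.57 for complex III, 9.47 for complex IV and 11.1 for complex V. Rescaled over protein-coding genes, which hold 27.4%, 30.7% and 31.9% of TPM, it was 10.3 for complex I, 6.16 for the assembly factors, 31.6 for complex II, 14.6 for complex III, 12.7 for complex IV and 30.7 for complex V. Over detected members only it was 5.07 for complex I and 10.3 for complex IV. Members that varied beyond counting noise numbered 44 of 86 from the reads, where 55.1% of all genes did, 33 with total count scaling (60.0% of all genes) and 22 with DESeq2 size factors (54.6%). Leaving out 1 library at a time gave 5 to 18 (27.9% to 43.5%).

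With a pseudocount of 0.1 the log2 ratio was 4.65 for Atp5g3 to Atp5g1 and 3.05 for Atp5g2 to Atp5g1. From the reads it was 1.23 for Atp5g2 to Atp5g1 and 1.84 for Cox7a2 to Cox7a2l, where the gene tables gave -0.09. The median retained-intron share was 49.7% from the reads and 54.8% to 58.4% with 1 library left out, the latter without replicate 3. Of 74 recomputed values 52 stayed within the spread between libraries or, for counts, within 1.5 times. The cause of the other shifts was not tested, except that rescaling and filtering change the values by construction. No paired analysis was possible because there is 1 group. With 3 libraries, members under about 30 counts give the test little power.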
